A study of Mus musculus with 9 samples.

Results

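Mouse T cells activated for 48 h in the presence of IMD-0354, a small molecule inhibitor of the kinase IKK-beta, were compared with T cells activated in the same way without it. The comparison was between 6 of the 9 libraries of the series, 3 in each group, chosen by their labels. It was made across the 18374 genes that passed a filter on low counts. All cells were splenic CD3+ T cells enriched on columns, from female mice of the strain F1 mus x cast. Their mothers were C57BL/6 females heterozygous for a deletion of Xist and their fathers castaneus males, which skews X inactivation. Every group shares this hybrid genome and this deletion. Cells of both groups were cultured on plate-bound anti-CD3 at 1 µg/ml with soluble anti-CD28 at 10 µg/ml, and the inhibitor group also received 2.5 µM IMD-0354. The other 3 libraries came from unstimulated cells, placed in TRIzol directly after enrichment. Their levels are quoted as a reference. They also entered the count filter, the scaling and the estimate of spread behind every standard error and p-value. The labels name no vehicle for the cultures without inhibitor, and no age of the mice. The libraries are labelled as biological replicates without a statement that they came from separate animals, so the p-values measure the spread between libraries, which may in part be technical. By its title the study concerns the need for NF-kB signalling in placing Xist RNA on the inactive X of activated T cells.

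NF-kB is a family of transcription factors built from the subunits RelA, RelB, c-Rel, p50 and p52. In resting cells the dimers are held in the cytoplasm by IkB proteins. Signals from the T cell receptor and CD28 pass through an adaptor complex with BCL10 and MALT1 to the IKK complex, whose catalytic subunit IKK-beta (gene Ikbkb) phosphorylates IkB and marks it for destruction, so that the dimers reach the nucleus. Several IkB genes are themselves NF-kB targets and close a feedback loop. In activated T cells the pathway is known for its part in cytokine expression, survival and growth, alongside NFAT, AP-1 and MYC. All of the values below are RNA levels, which do not measure kinase activity or the place of a protein in the cell.

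Total counts were between 34009988 and 56221174 per library. Inhibitor library 1 stood apart, where 30106 genes had a count; the remaining 8 libraries had 20547 to 23223 such genes. Of its genes 11529 had 1 to 9 counts and 5096 had counts in no other library, though the latter held only 0.0673% of its counts. Of the 3990 genes called higher with the inhibitor in all libraries (21.7% of those tested) 3305 were called higher without this library, and of the 4192 called lower (22.8%) 3558 were called lower, with no change of sign among either set. Genes under 1 CPM (the per-library normalised read count, scaled by the trimmed mean of M-values) had a median log2 fold change of 0.33 with this library and 0.00 without it, so low genes below are read with that in mind. T cell markers were high in both groups, though lower in sum with the inhibitor. The 14 markers summed to 3263 to 3469.5 CPM in stimulated and 2861 to 2949 CPM in inhibitor libraries. Of these 2 were higher and 5 lower, and 1 was higher and 3 lower without inhibitor library 1. Thy1 fell (-0.90), and Trac, the T cell receptor alpha constant gene, was not called at 279 ± 4.78 and 278 ± 12.3 CPM (SD, n = 3).

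**Figure D1:**
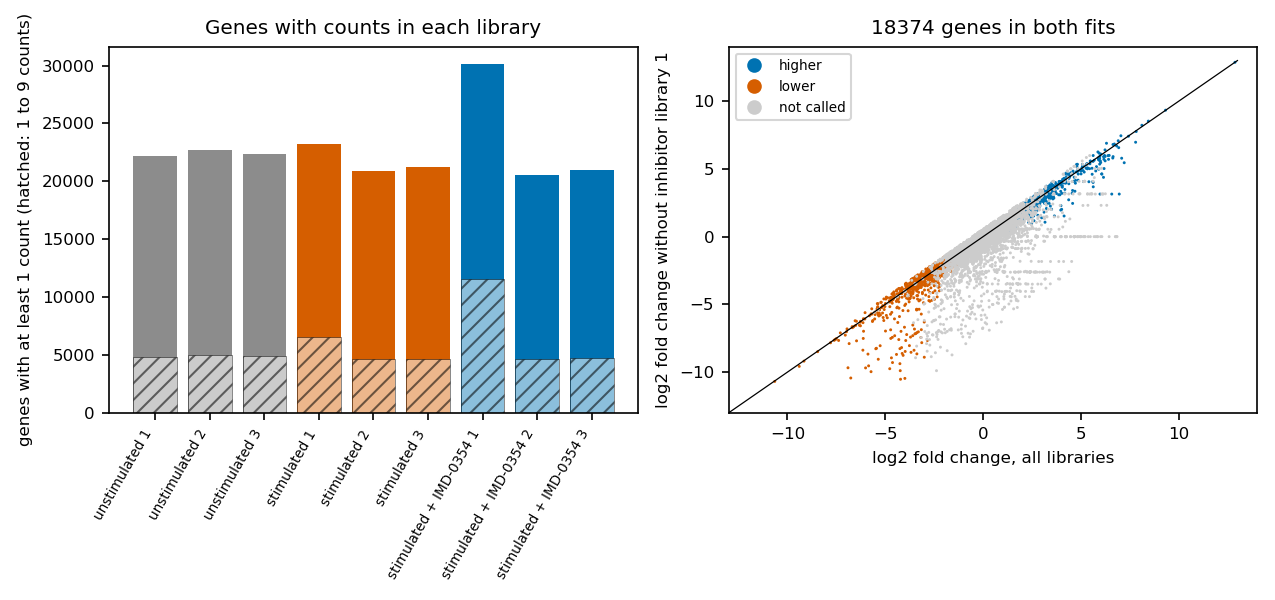
Left, the number of genes with at least 1 count in each of the 9 libraries, with the genes of 1 to 9 counts hatched; right, the log2 fold change (inhibitor over stimulated) of each gene with all libraries on the x axis and without inhibitor library 1 on the y axis, coloured by its call with all libraries. Inhibitor library 1 rises above the others at 30106 genes, of which 11529 had 1 to 9 counts, and called genes lie on the same side of 0 on both axes.

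The inhibitor was accompanied by changes in a large part of the transcriptome. By edgeR's quasi-likelihood test with Benjamini-Hochberg adjustment, 3990 of 18374 genes (21.7%) were higher with the inhibitor and 4192 (22.8%) lower, and 44.5% of all genes were called in either direction. Changes of at least 2-fold were seen in 9.31% of genes upward and 10.8% downward. The median over all genes was 0.03 on the log2 scale. In 28.0% of all genes every inhibitor library lay above every stimulated library, and in 29.4% every one lay below. The counts of each gene group below, and each lack of overlap, are to be read against these shares of all genes. Values are CPM per library in the order of libraries 1 to 3, and fold changes are log2 of inhibitor over stimulated, with their standard error. Genes given by a fold change or a group mean alone were for the most part chosen after their values were seen.

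The 15 genes with the largest rise at a mean log2 CPM of at least 5 mixed secreted factors with regulators of resting lymphocytes. Klf3 (ENSMUSG00000029178, chromosome 5, 64803388 to 64832901 on mm10), a Krüppel-like repressor of resting lymphocytes, had 12, 12.9 and 9.23 CPM in stimulated libraries 1 to 3 and 128, 109.9 and 98.7 CPM in inhibitor libraries 1 to 3. Every inhibitor library was thus far above every stimulated library, by 9.87 times on average (log2 fold change 3.30 ± 0.14, adjusted p = 4.3e-07), though below the unstimulated 553 ± 37.8 CPM. Myb, a transcription factor of lymphoid progenitors, had 43.6, 40.1 and 42.3 CPM without and 285, 234 and 167 CPM with the inhibitor (log2 fold change 2.44 ± 0.27, adjusted p = 7.2e-05). Ikzf2, which encodes Helios, had 49.6, 41.98 and 43.9 and 209, 194 and 228 CPM (2.22 ± 0.09). Pik3ip1, a brake on phosphoinositide 3-kinase, had 15.9, 14.8 and 13.5 and 68.2, 83.6 and 62.4 CPM (2.28 ± 0.18). All 15 genes were picked among genes without overlap of libraries between the groups, so their separation was set by the choice. Trp53inp1 (2.29 ± 0.12), Zbtb20 (2.17 ± 0.12), Foxj2 (2.16 ± 0.12), Crebrf (2.28 ± 0.16), Ipcef1 (2.61 ± 0.15), Gpr107 (2.28 ± 0.09) and the guanylate-binding protein Gbp4 (2.52 ± 0.12) completed the set with Ccl3, Ccl4, Xcl1 and Ccr7, which are described with the chemokines.

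The 15 largest falls at a mean log2 CPM of at least 5 joined metabolic enzymes, a checkpoint receptor and genes of dividing cells. Tgm2 (ENSMUSG00000037820, chromosome 2, 158116402 to 158146436), a transglutaminase that cross-links proteins, had 760.1, 631 and 713 CPM in the stimulated libraries and 3.09, 2.72 and 7.44 CPM with the inhibitor (log2 fold change -7.30 ± 0.39, adjusted p = 1.0e-06). Its change was -7.92 without inhibitor library 3, the highest of the treated libraries, and -7.10 without inhibitor library 1. Nfil3 (ENSMUSG00000056749, chromosome 13, 52967209 to 52981073), a basic leucine zipper factor, went from 179, 173 and 192 to 8.68, 10.5 and 11.5 CPM (log2 fold change -4.14 ± 0.14, adjusted p = 1.7e-07), near the unstimulated 12.3 ± 1.85 CPM. Ppp1r3b, a glycogen-targeting subunit of protein phosphatase 1, went from 216, 185 and 200.3 to 8.87, 7.16 and 8.74 CPM (log2 fold change -4.60 ± 0.15, adjusted p = 1.4e-07). The inhibitor libraries of these genes lay far below the stimulated ones. All 15 genes were picked among genes without overlap of libraries, so the separation was set by the choice. Tg, the thyroglobulin gene, had 197, 186 and 241 CPM and 13.5, 18.1 and 18.2 CPM (-3.64 ± 0.19). The others were Scd1, Egln3, Slc16a3, Ctla4, the mitotic genes Cenpf, Cdc20, Aspm, Kif20a and Espl1, and the histone genes Hist1h2bk and Hist1h3b, taken up in their groups.

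**Figure D2:**
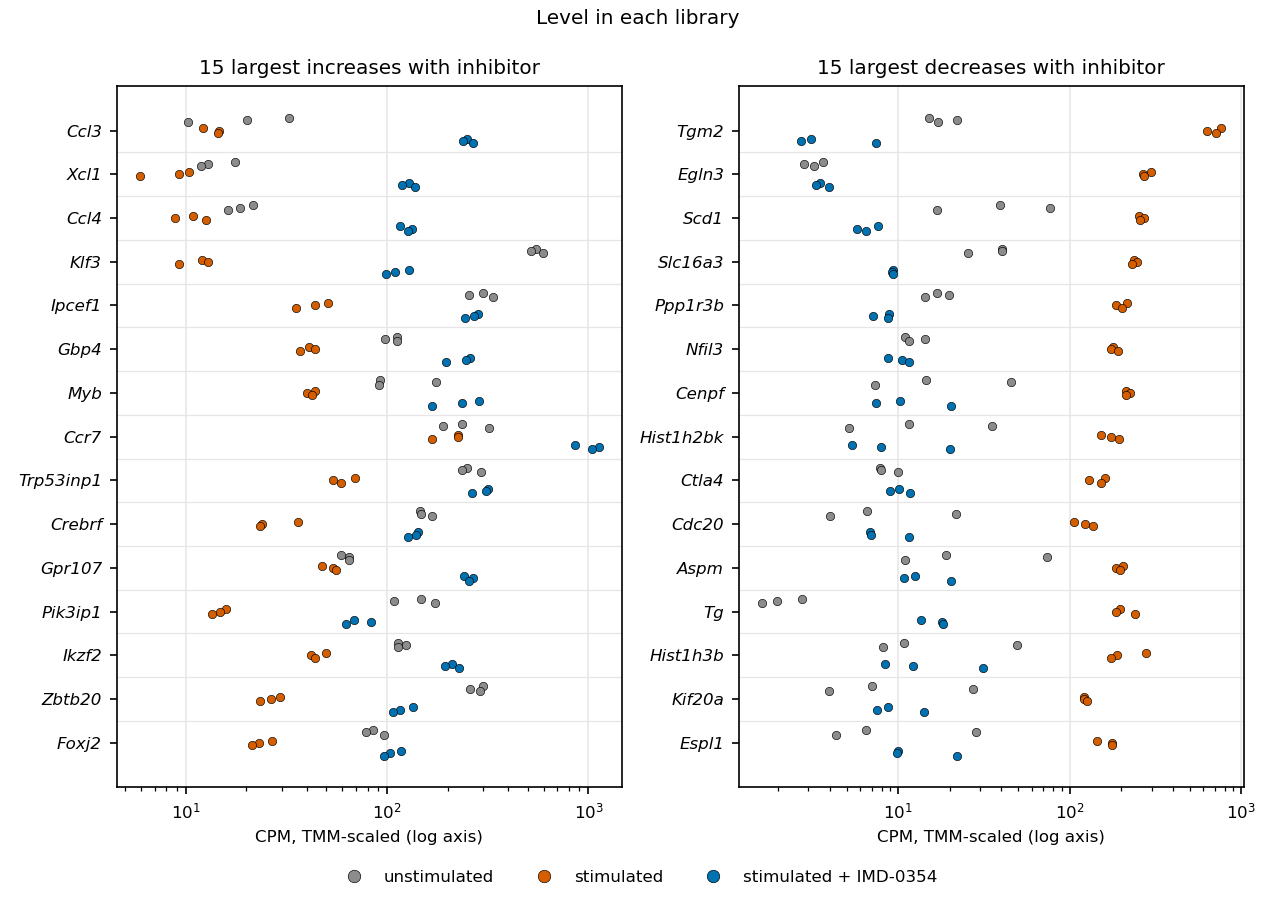
Level of the 15 abundant genes with the largest increase (left) and decrease (right) in each library, in CPM on a log axis, with 1 point per library and colours for unstimulated, stimulated and inhibitor-treated cells. For each gene the 3 inhibitor libraries lie apart from the 3 stimulated libraries, which was a condition of the choice. Klf3 sits at 112 ± 14.8 CPM with the inhibitor against 11.4 ± 1.897 CPM without, and Tgm2 at 4.42 ± 2.63 against 701 ± 65.3 CPM (mean ± SD, n = 3).

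Genes of the NF-kB system itself were mostly higher with the inhibitor. Of the 5 subunit genes Rela, Relb, Rel and Nfkb2 rose and Nfkb1 fell. Rela, encoding the p65 subunit, had 74.9, 78.3 and 78.8 CPM in stimulated and 132, 134 and 129 CPM in inhibitor libraries (log2 fold change 0.77 ± 0.08, adjusted p = 5.3e-05). Nfkb2, which encodes p100 and its product p52, had 281, 347 and 301 CPM and 446, 510.4 and 522 CPM (log2 fold change 0.67 ± 0.10, adjusted p = 4.5e-04). Rel, encoding c-Rel, had 187, 174 and 175 CPM and 326, 279 and 284 CPM (log2 fold change 0.73 ± 0.09, adjusted p = 1.3e-04). The groups did not overlap in any of these, and the inhibitor level of each stood above the unstimulated mean (88.3 ± 8.08, 81.1 ± 4.68 and 103 ± 8.36 CPM). Nfkb1, encoding p105 and p50, had 686, 732 and 665 CPM and 559, 572 and 584 CPM (log2 fold change -0.28 ± 0.07, adjusted p = 0.0086); this call was lost under upper-quartile scaling, at -0.15. Among 13 genes of IkB proteins and feedback regulators 7 were higher and 3 lower, with a median log2 fold change of 0.41 (7 higher and 1 lower without inhibitor library 1). Nfkbia, encoding IkB-alpha, had 148, 159 and 153 CPM and 230.3, 269.8 and 302 CPM (log2 fold change 0.81 ± 0.12, adjusted p = 3.7e-04), without overlap. Nfkbie, encoding IkB-epsilon, had 24.6, 30.98 and 31.8 CPM and 50.97, 60.8 and 61.96 CPM (log2 fold change 0.99 ± 0.12, adjusted p = 1.5e-04). Nfkbiz, an atypical nuclear IkB, had 55.3, 52.5 and 54.9 CPM and 104, 101 and 90.4 CPM (log2 fold change 0.86 ± 0.07, adjusted p = 1.4e-05). Bcl3, another nuclear IkB that acts with p50 and p52, moved the other way, from 85.6, 104 and 125 to 31.6, 36.1 and 35.8 CPM (log2 fold change -1.60 ± 0.20, adjusted p = 1.7e-04). Tnfaip3, which encodes the deubiquitinase A20, had 200.3, 159 and 209 CPM and 242, 259 and 254 CPM; its libraries did not overlap, but its adjusted p was 0.083, and it passed the threshold in 5 of the alternative settings.

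Genes upstream of the subunits were more often higher than lower. In the list of 20 genes for IKK and its upstream signalling 10 were higher and 2 lower (median 0.26), and 8 and 1 without inhibitor library 1. The gene of the drug's target, Ikbkb, had 101, 114 and 111 CPM in the stimulated libraries and 167, 159.9 and 157 CPM with the inhibitor (log2 fold change 0.57 ± 0.08, adjusted p = 3.7e-04), below the unstimulated 271 ± 20.6 CPM. The other kinase subunit, Chuk (IKK-alpha), had 88.3 ± 2.51 and 76.9 ± 0.825 CPM (log2 fold change -0.20 ± 0.07, adjusted p = 0.0382), and the scaffold Ikbkg (NEMO) had 41.9 ± 2.86 and 48.7 ± 3.41 CPM with no call (adjusted p = 0.119). Ripk1 (0.59 ± 0.11) and Map3k7, encoding TAK1 (0.50 ± 0.09), were also higher. Malt1 (-0.32), Bcl10 (0.26) and Birc3 (0.00) were not called.

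Genes known as NF-kB targets split, with 15 higher and 7 lower of 30 tested (median 0.59). Irf1, a transcription factor that acts in interferon responses, had 90.3, 92.98 and 86.3 CPM without and 303, 371 and 349.6 CPM with the inhibitor (log2 fold change 1.93 ± 0.12, adjusted p = 3.1e-06), above the unstimulated 189 ± 31.4 CPM. Ccnd2, encoding cyclin D2, rose from 810.4, 712 and 642 to 1332, 1342 and 1328 CPM (log2 fold change 0.89 ± 0.16, adjusted p = 0.00139). Both genes had 3 inhibitor libraries close together and well above the stimulated ones. Ier3, an immediate early gene with a role in survival, was the member that fell most, from 102, 86.3 and 109.7 to 11.5, 15.3 and 14.8 CPM (log2 fold change -2.84 ± 0.14, adjusted p = 7.5e-07), and Myc, a driver of growth, fell by 0.43 on the log2 scale, from 370.1, 424 and 352 to 285, 274 and 292 CPM (adjusted p = 0.00174). Sod2 (-0.90 ± 0.09) and Lta (-0.38 ± 0.11) were lower too. Bcl2l1, encoding Bcl-xL, had 203, 232 and 218 CPM and 206, 236 and 252 CPM, which overlapped (adjusted p = 0.74).

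Promoter sequences of 3 of these genes, each higher with the inhibitor, are shown for the site through which NF-kB is known to act. They were picked because they hold a match. The windows of Ccl3 and Il2, which rose, and the second listed promoter of Irf1 held none. Promoters were taken from RefSeq (GRCm38.p6) as the 300 bases from 250 before to 50 after a start, and searched on both strands for the kappa B consensus. Of all 32851 promoters 8.46% held a match. Of the promoters of the NF-kB subunits 4 of 5 did, of which 3 belong to Nfkb2 and share a site in part. So did 7 of 15 (46.7%) for the IkB and feedback genes and 14 of 28 (50%) for the target list. Entries were found for 3 of 5, 12 of 13 and 22 of 30 of the genes of these lists. Among other lists the share was 53.3% (8 of 15) for MHC class I presentation, 37.5% (3 of 8) for chemokines and 26.3% (5 of 19) for the tricarboxylic acid cycle. It was 8.82% (3 of 34) for glycolysis and 11.1% (3 of 27) for mitosis. Shown 5′ to 3′ in the direction of transcription, with matches in capitals, the promoters picked are Nfkbia (IkB-alpha, chr12:55492598-55492897, minus strand), the first listed promoter of Nfkb2 (chr19:46304487-46304786, plus strand) and the first listed promoter of Irf1 (chr11:53769764-53770063, plus strand).
Nfkbia: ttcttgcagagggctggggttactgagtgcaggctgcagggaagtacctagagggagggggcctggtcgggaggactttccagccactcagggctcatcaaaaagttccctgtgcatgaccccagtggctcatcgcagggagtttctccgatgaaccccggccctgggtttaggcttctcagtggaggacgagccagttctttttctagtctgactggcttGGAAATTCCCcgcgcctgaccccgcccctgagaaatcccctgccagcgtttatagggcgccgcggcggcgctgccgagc
Nfkb2: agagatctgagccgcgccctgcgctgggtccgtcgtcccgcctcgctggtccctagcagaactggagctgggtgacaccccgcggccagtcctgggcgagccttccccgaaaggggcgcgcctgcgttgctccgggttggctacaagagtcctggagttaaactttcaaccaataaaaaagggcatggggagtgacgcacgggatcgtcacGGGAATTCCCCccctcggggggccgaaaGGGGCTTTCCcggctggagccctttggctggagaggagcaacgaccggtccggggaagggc
Irf1: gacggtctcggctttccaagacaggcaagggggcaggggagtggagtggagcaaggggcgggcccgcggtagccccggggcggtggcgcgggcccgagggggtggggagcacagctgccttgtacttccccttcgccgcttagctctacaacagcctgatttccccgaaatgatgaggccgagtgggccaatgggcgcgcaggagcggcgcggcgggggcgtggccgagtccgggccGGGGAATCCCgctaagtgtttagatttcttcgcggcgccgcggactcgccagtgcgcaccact
The Nfkb2 promoter holds 3 matches, and Nfkbia and Irf1 hold 1 each. In Nfkb2 the matches GGGAATTCCC and GGAATTCCCC overlap in a single capital stretch, and GGGGCTTTCC stands apart. A match describes these letters and is not evidence of binding, which was not measured.

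**Figure D3:**
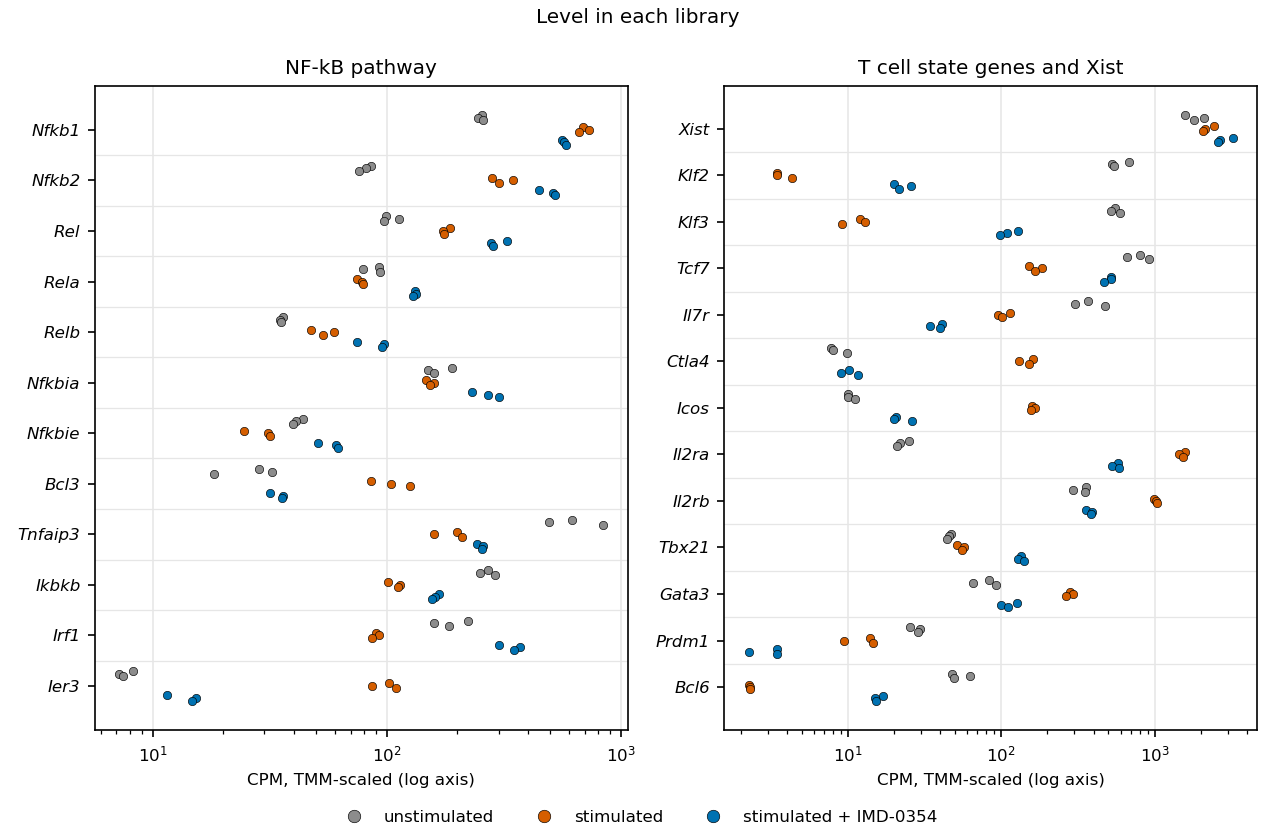
Level in each library, in CPM on a log axis, of 12 genes of the NF-kB pathway (left) and of 13 T cell state genes including Xist (right), with 1 point per library and colours for the 3 groups. Rela, Rel and Irf1 sit to the right with the inhibitor, Bcl3 and Ier3 to the left, and on the right panel Klf2 and Klf3 lie between the stimulated and the unstimulated libraries, while Ctla4 falls to 10.3 ± 1.36 CPM.

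Chemokine genes were higher with the inhibitor almost throughout, with 10 higher and 0 lower of 11 tested and a median log2 fold change of 3.49. Ccl3 (ENSMUSG00000000982, chromosome 11, 83647844 to 83649355), an inflammatory CC chemokine, had 12.2, 14.6 and 14.5 CPM in stimulated and 248, 239 and 268 CPM in inhibitor libraries, 18.3 times higher on average (log2 fold change 4.19 ± 0.35, adjusted p = 1.2e-05). Its neighbour Ccl4 (ENSMUSG00000018930, chromosome 11, 83662584 to 83664683) had 10.8, 8.82 and 12.6 CPM and 116, 133 and 128 CPM (log2 fold change 3.55 ± 0.16, adjusted p = 4.5e-07), and Xcl1 (ENSMUSG00000026573, chromosome 1, 164931644 to 164935527), a ligand of XCR1 on dendritic cells, had 10.4, 9.27 and 5.896 CPM and 129, 118 and 137 CPM (log2 fold change 3.91 ± 0.23, adjusted p = 1.6e-06). For these 3 genes the lowest inhibitor library exceeded the unstimulated mean as well (21.01 ± 11.2, 18.8 ± 2.77 and 14.1 ± 3.03 CPM). Ccl22, a ligand of CCR4, had 16.6, 17.7 and 16.9 CPM and 41.2, 38.2 and 74.4 CPM (log2 fold change 1.59 ± 0.30, adjusted p = 0.00205), with inhibitor library 3 above the other treated libraries. Ccl1, picked out after its values were seen, had no count in any stimulated library and 2716 counts over the inhibitor libraries (21.7, 13.7 and 26.4 CPM). Set against a floor of 3 counts over the stimulated group, its counts gave a level at least 1007-fold higher (adjusted p = 9.6e-06). This bound is in counts and would be lower if both mates of a read pair were counted. The interferon-inducible ligands Cxcl9 and Cxcl10 and the T cell chemokine Ccl5 rose from low levels, to 2.96 ± 1.397, 3.76 ± 1.36 and 9.33 ± 3.33 CPM.

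Cytokine genes moved in both directions, with 6 higher and 13 lower of 30 (median -0.40). Il2 (3.95, 3.22 and 1.498 CPM against 37.6, 52.1 and 57.8 CPM with the inhibitor, log2 fold change 4.09 ± 0.34, adjusted p = 1.3e-05) and Tnf (54.02, 58.7 and 49.8 against 125, 143 and 127 CPM, log2 fold change 1.29 ± 0.14, adjusted p = 5.6e-05) rose. Tnfsf11, which encodes RANKL, had 16.4, 17.8 and 9.86 CPM and 41.8, 47.2 and 60.7 CPM (log2 fold change 1.77 ± 0.23, adjusted p = 2.2e-04). Tnfsf8, the ligand of CD30, was higher as well (0.79), while its receptor gene Tnfrsf8 fell to 1.49 ± 0.459 CPM from 155 ± 23.02 CPM. Several cytokines of helper T cells were lower. Il13 had 48.3, 55.97 and 58.6 CPM and 2.01, 1.61 and 5.07 CPM (log2 fold change -4.22 ± 0.52, adjusted p = 1.4e-04). Its change was -4.91 without inhibitor library 3 and -4.02 without inhibitor library 1. Il21, a cytokine of follicular helper cells, had 45.7, 33.6 and 63.3 CPM and 1.11, 0.653 and 1.6 CPM (log2 fold change -5.40 ± 0.35, adjusted p = 3.0e-06). Il4 (9.36, 5.77 and 6.65 against 0.190, 0.174 and 0.246 CPM, -5.13), Il10 (15.7, 8.19 and 11.2 against 0.678, 0.719 and 0.861 CPM, -3.95), Il5 (-4.10) and Il9 (-3.82) followed at lower levels. The interleukin 6 family members Lif and Osm had 338 ± 14.7 and 49.9 ± 3.44 CPM without and 82.04 ± 5.52 and 12.8 ± 2.35 CPM with the inhibitor (-2.04 and -1.95). Ifng, the interferon of Th1 and CD8 cells, had 222, 283 and 275 CPM and 111, 103 and 162 CPM (log2 fold change -1.05 ± 0.19, adjusted p = 0.00138). Csf2 (0.56, adjusted p = 0.232), Il3 (-0.07, adjusted p = 0.846) and Il17a (-1.32, adjusted p = 0.169) were not called.

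**Figure D4:**
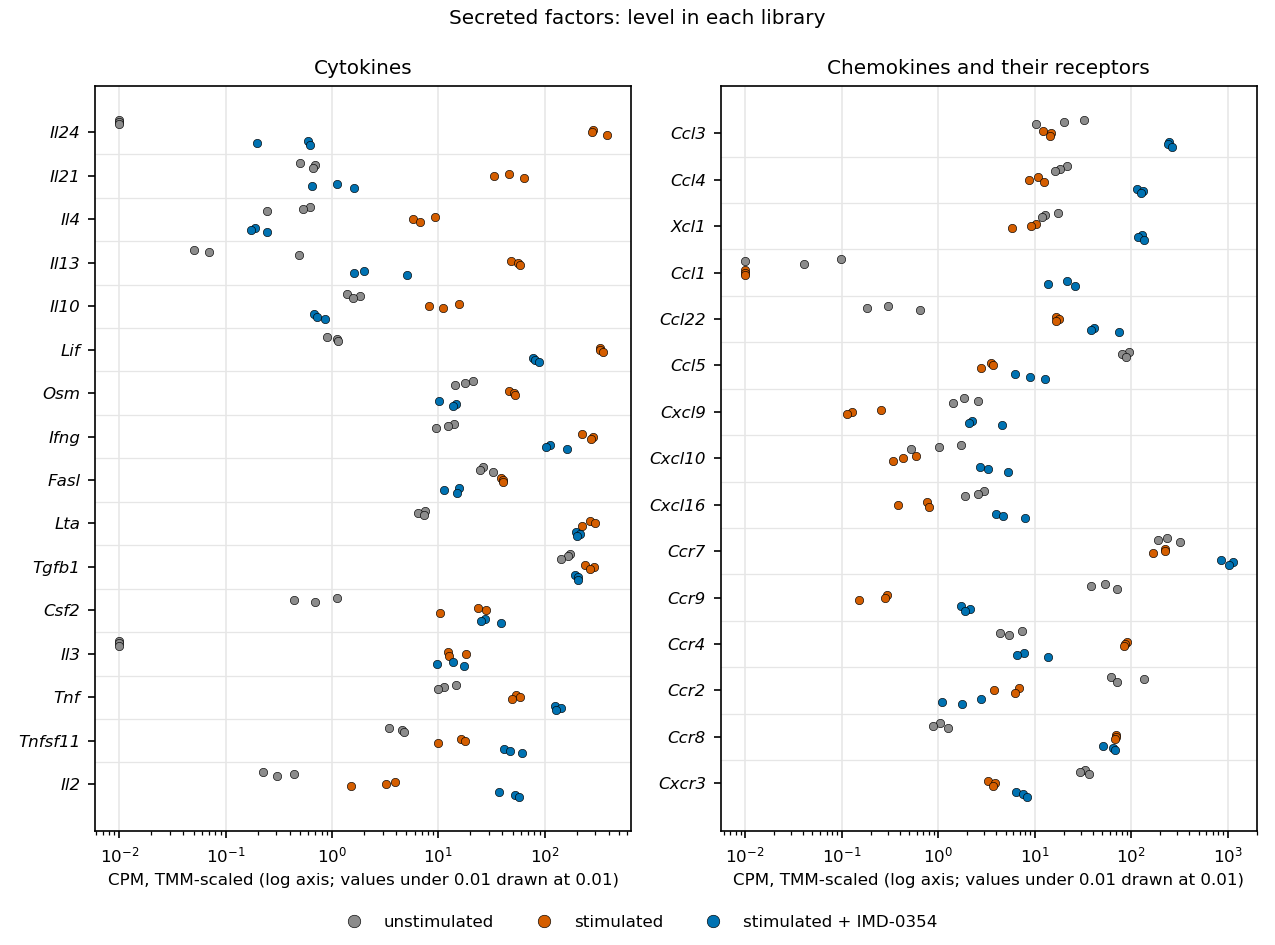
Level in each library, in CPM on a log axis with values under 0.01 drawn at 0.01, of 16 cytokine genes (left) and of 15 genes of chemokines and their receptors (right), with 1 point per library and colours for the 3 groups. The inhibitor points lie to the right of the stimulated points for Il2, Tnf, Ccl1, Ccl3 and Ccl4, and to the left for Il24, Il21, Il4 and Il13; Csf2 and Il3 were not called.

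Chemokine receptors were divided. Ccr7, which guides T cells to lymph nodes, had 226, 225 and 168 CPM in stimulated and 857, 1126 and 1037 CPM in inhibitor libraries (log2 fold change 2.29 ± 0.20, adjusted p = 1.8e-05), above the unstimulated 248 ± 66.2 CPM. Ccr4 fell from 90.6, 85.6 and 83.8 to 7.84, 6.51 and 13.9 CPM (log2 fold change -3.20 ± 0.28, adjusted p = 1.9e-05), without overlap of the libraries. Ccr8, a receptor for CCL1, had 68.9 ± 1.33 and 61.3 ± 9.28 CPM with no call (adjusted p = 0.334). Of all 16 tested 5 were higher and 3 lower. Their median of 0.71 became 0.15 without inhibitor library 1, 1.37 without stimulated library 1 and -0.22 among genes of at least 10 CPM.

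Cytokine receptors were also divided, with 9 higher and 8 lower of 21. Il2rb had 986, 1023 and 1035 CPM without and 355, 389.9 and 382 CPM with the inhibitor (log2 fold change -1.43 ± 0.09, adjusted p = 2.5e-06). Il12rb2 had 533, 536 and 603 CPM and 127, 112 and 138 CPM (log2 fold change -2.15 ± 0.10, adjusted p = 5.3e-07). Il7r, the receptor chain for the survival cytokine IL-7, fell from 114, 95.8 and 102 to 41.3, 34.6 and 40.01 CPM (log2 fold change -1.43 ± 0.16, adjusted p = 6.8e-05) and so lay further from the unstimulated 380.4 ± 88.03 CPM. Il4ra (-1.23), Il10ra (-1.51) and Il12rb1 (-0.92) were lower too. Il2rg, the common gamma chain, on the X chromosome, rose from 81.6, 83.6 and 76.04 to 168, 129 and 120.5 CPM (log2 fold change 0.79 ± 0.13, adjusted p = 6.8e-04), and Il6st, the signal-transducing chain gp130, from 67.6, 65.3 and 69.2 to 208, 213 and 186 CPM (log2 fold change 1.59 ± 0.11, adjusted p = 4.9e-06). Downstream, 4 of 18 genes of JAK kinases, STAT factors, SOCS and PIM proteins were higher and 10 lower. Socs3, a feedback inhibitor of cytokine signalling, had 195, 173 and 212 CPM and 16.5, 16.7 and 18.95 CPM (log2 fold change -3.47 ± 0.11, adjusted p = 1.4e-07). Socs1 had 124, 138 and 161 CPM and 29.1, 48.7 and 56.6 CPM (log2 fold change -1.66 ± 0.24, adjusted p = 3.9e-04). Jak3 was lower (-0.96 ± 0.11).

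Genes of cytotoxic granules were mostly lower, 9 of 14 tested against 3 higher (median -2.20). This median was -1.22 with voom, -1.05 with the 6 stimulated libraries alone and -0.76 among genes of at least 10 CPM. The granzymes made up most of the falls. Gzmb, the most abundant of the list in stimulated cells, had 2963, 2900 and 3008 CPM there. With the inhibitor it had 302, 273 and 306 CPM (log2 fold change -3.33 ± 0.10), above the unstimulated 21.8 ± 1.92 CPM. Gzma had 119, 80.6 and 187 CPM in the stimulated libraries and 1.08, 0.566 and 0.697 CPM with the inhibitor (log2 fold change -7.39 ± 0.37, adjusted p = 7.8e-07), against 163 ± 17.7 CPM in unstimulated cells. Gzmc had 35.7, 39.7 and 65.3 CPM and 0.542, 0.479 and 0.513 CPM (log2 fold change -6.52 ± 0.48, adjusted p = 6.2e-06), and Gzmf and Gzmd were lower too (-6.12 and -6.76). Gzme had 233 counts over the stimulated libraries and none with the inhibitor, at least 69.9-fold lower against a floor of 3 counts over the group. This bound has the same limit as that of Ccl1. The clustered genes Gzmc to Gzmf are near-identical copies between which reads may be shared, so their values are uncertain one by one. Prf1, encoding perforin, fell from 59.4, 62.8 and 81.8 to 34.6, 31.5 and 31.8 CPM (log2 fold change -1.06 ± 0.15, adjusted p = 3.2e-04). Lamp1, a lysosomal membrane protein also found on granules, rose from 91.9, 80.5 and 87 to 169, 153 and 159 CPM (log2 fold change 0.89 ± 0.11, adjusted p = 1.4e-04). Markers of NK cells, which share many of these genes, moved in the same direction: 9 of 10 were lower and Eomes was higher, and the list summed to 206 to 224 CPM in stimulated and 148 to 159.9 CPM in inhibitor libraries. Ncr1, a defining NK receptor, had 1.46, 1.79 and 1.14 CPM and 0.190, 0.131 and 0.0410 CPM. In bulk RNA fewer cells of a type and less RNA per cell cannot be told apart, and the part of NK cells in the granzyme values was not tested.

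Receptors that tune activation changed in both directions, with 6 higher and 5 lower of 17. Ctla4, a checkpoint receptor on the ligands of CD28, had 161, 130.2 and 153 CPM without and 10.1, 8.99 and 11.7 CPM with the inhibitor, 14.4-fold lower on average (log2 fold change -3.85 ± 0.15, adjusted p = 2.3e-07) and close to the unstimulated 8.56 ± 1.17 CPM. Icos went from 159, 165 and 156 to 20.7, 20.1 and 26.1 CPM (log2 fold change -2.84 ± 0.11, adjusted p = 3.2e-07) and Tigit from 43.3, 39.4 and 49.3 to 4.42, 4.49 and 7.03 CPM (log2 fold change -3.05 ± 0.23, adjusted p = 7.2e-06). The libraries of the groups did not overlap for any of these 3 genes. Pdcd1, encoding PD-1, had 14.6, 17.97 and 16.7 CPM and 11.96, 13.98 and 18.2 CPM, which overlapped (adjusted p = 0.481), and Lag3 (227 ± 16.9 and 186 ± 15.4 CPM) was not called (adjusted p = 0.0679). Cd96 rose (25.8, 26.3 and 24.5 against 75.6, 62.5 and 66.1 CPM, log2 fold change 1.42 ± 0.14, adjusted p = 3.8e-05), as did Cd274, encoding PD-L1 (0.88), and Cd28 (0.46). In the TNF receptor family 4 were higher and 6 lower of 14. Tnfrsf9, encoding 4-1BB, had 477, 440.5 and 436 CPM and 179, 177 and 183 CPM (log2 fold change -1.33 ± 0.11, adjusted p = 1.3e-05), Tnfrsf4 (OX40) and Tnfrsf18 (GITR) were lower (-0.86 and -0.97), and the death receptor gene Fas rose from 13.2, 10.7 and 7.91 to 28.4, 32.2 and 33.2 CPM (log2 fold change 1.56 ± 0.18, adjusted p = 9.8e-05). Of 7 SLAM family genes 5 were lower, among them the adaptor Sh2d1a (40.3, 41.1 and 34.98 against 7.65, 10.6 and 13.3 CPM, -1.88 ± 0.21), while Slamf6 had 10.3, 7.89 and 5.48 CPM and 112, 88.4 and 84.7 CPM (log2 fold change 3.59 ± 0.22, adjusted p = 2.0e-06).

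Among 22 genes of the receptor complex and its proximal signalling 5 were higher and 3 lower (median -0.13), against 21.7% and 22.8% of all genes. Cd3e had 193, 191 and 199 CPM and 417, 390.5 and 359.6 CPM (log2 fold change 1.00 ± 0.15, adjusted p = 5.7e-04) and Cd4 184, 187 and 181 CPM and 323, 319 and 326 CPM (log2 fold change 0.81 ± 0.12, adjusted p = 4.7e-04), whereas Cd8a (149 ± 13.3 and 108 ± 9.26 CPM) and Lck (397 ± 15.8 and 328 ± 12.9 CPM) were not called. Themis, a regulator of signalling in developing T cells, fell from 304, 246 and 239 to 74.99, 63.6 and 73.6 CPM (log2 fold change -1.89 ± 0.16, adjusted p = 1.2e-05). Calcineurin and NFAT genes had 5 higher and 2 lower of 13, with Nfatc1 up (144, 164 and 156 against 292, 274 and 259.7 CPM, 0.83 ± 0.08) and Nfatc2 down (189, 199 and 193 against 99.6, 111 and 103 CPM, -0.89 ± 0.11). Of 22 immediate early and AP-1 genes 9 were higher and 5 lower. Egr3 rose from 7.01, 9.23 and 5.71 to 30.4, 34.6 and 30.8 CPM (log2 fold change 2.13 ± 0.27, adjusted p = 1.6e-04), and Nr4a3 (1.33), Jun (1.83) and Fosb (2.49) were higher. Nr4a1, a common readout of receptor signalling, had 192, 232 and 231 CPM and 242, 234 and 242 CPM and was not called (adjusted p = 0.244). Batf, Batf3 and Fosl2, of the AP-1 family, fell. Batf had 57.3, 57.5 and 57.6 CPM and 11.1, 13.5 and 17.4 CPM (log2 fold change -2.04 ± 0.15, adjusted p = 6.0e-06). Batf3 had 54.5, 56.3 and 59.5 CPM and 3.77, 3.85 and 7.49 CPM (-3.49 ± 0.36). Fosl2 had 381, 374 and 442 CPM and 69.2, 75.3 and 75.1 CPM (-2.45 ± 0.13). Irf4, the partner of BATF that rises with receptor strength, had 1183, 1046 and 975 CPM and 1056, 1013 and 915 CPM, which overlapped (adjusted p = 0.72).

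Factors that set effector lineages did not move as a block (7 higher and 5 lower of 19, median 0.00). Tbx21, the Th1 factor T-bet, rose from 51.8, 57.2 and 55.8 to 135, 128 and 139.8 CPM (log2 fold change 1.29 ± 0.08, adjusted p = 1.6e-06) and Eomes, its relative, from 13.4, 18.6 and 15.1 to 38.9, 30.1 and 30.5 CPM (log2 fold change 1.08 ± 0.16, adjusted p = 4.0e-04). Gata3, the Th2 factor, fell from 280.5, 294 and 263 to 127, 100.2 and 111 CPM (log2 fold change -1.31 ± 0.13, adjusted p = 3.8e-05), and Prdm1, encoding Blimp-1, from 14.03, 9.43 and 14.6 to 3.47, 2.26 and 3.45 CPM (log2 fold change -2.05 ± 0.21, adjusted p = 5.3e-05). Bcl6, the follicular helper factor that opposes Blimp-1, had 2.26, 2.31 and 2.31 CPM and 16.97, 15.05 and 15.2 CPM (log2 fold change 2.78 ± 0.14, adjusted p = 6.8e-07). Tox (7.33, 8.82 and 5.37 against 45.4, 39.6 and 40.1 CPM, 2.54 ± 0.18) and Rora (1.72 ± 0.13) were higher, and Runx3, a factor of CD8 cells, was lower (-1.08 ± 0.13). In the list of regulatory T cell genes 4 were higher and 7 lower of 16. Foxp3, the defining factor of these cells, had 1.84, 2.31 and 1.99 CPM and 6.26, 7.86 and 7.42 CPM (log2 fold change 1.81 ± 0.18, adjusted p = 4.0e-05), Itgae, encoding the integrin CD103, rose from 1.33 ± 0.394 to 30.6 ± 3.06 CPM (4.52 ± 0.22), and Nt5e, encoding CD73, from 7.96, 6.96 and 7.11 to 30.2, 26.5 and 25.8 CPM (1.90 ± 0.14). Izumo1r, encoding folate receptor 4, fell (86.2, 85.8 and 82.8 against 37.1, 28.8 and 28.1 CPM, -1.44 ± 0.12), as did Entpd1, encoding CD39 (-3.05).

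Genes of naive and quiescent T cells had 13 higher and 7 lower of 30 (median 0.33). Several transcription factors of resting T cells rose and others fell. Klf2, a Krüppel-like factor that supports circulation, had 3.44, 3.44 and 4.34 CPM in stimulated and 20.1, 26.02 and 21.6 CPM in inhibitor libraries (log2 fold change 2.59 ± 0.15, adjusted p = 1.7e-06), still far below the unstimulated 584 ± 88.1 CPM. Tcf7, encoding TCF-1, had 152, 183 and 166 CPM and 522, 519 and 469 CPM (log2 fold change 1.59 ± 0.12, adjusted p = 8.5e-06) against 796 ± 128 CPM unstimulated. Bach2 (0.98), Btg1 (1.27) and Foxp1 (0.81) were higher as well. S1pr1, the exit receptor for lymph nodes, had 20.7 ± 4.296 and 21.6 ± 5.38 CPM with no call (adjusted p = 0.867). Ets1 (-0.75), Foxo1 (-0.44) and Satb1 (-0.33) were lower, and Lef1 had 248, 234 and 191 CPM and 263, 235 and 215 CPM, which overlapped. Among 15 adhesion and homing molecules 8 were higher and 4 lower; Itga4 rose from 68.7, 59.6 and 58.7 to 156, 154 and 159 CPM (log2 fold change 1.33 ± 0.08, adjusted p = 2.6e-06), and Cd44 from 216, 222 and 188 to 333, 309 and 359 CPM (log2 fold change 0.68 ± 0.14, adjusted p = 0.00371).

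Genes of dividing cells were lower throughout. All 30 mitosis genes tested were lower with the inhibitor, with a median log2 fold change of -3.31. Plk1, a mitotic kinase, had 129, 130.02 and 141 CPM without and 5.48, 4.81 and 7.88 CPM with the inhibitor (log2 fold change -4.46 ± 0.44, adjusted p = 4.0e-05). Ccnb2, encoding cyclin B2, had 81.9, 76.7 and 85.2 CPM and 2.96, 2.504 and 3.57 CPM (log2 fold change -4.75 ± 0.63, adjusted p = 2.3e-04). Cdc20, which activates the anaphase-promoting complex, had 105, 123 and 136 CPM and 6.83, 6.95 and 11.6 CPM (log2 fold change -3.84 ± 0.55, adjusted p = 3.6e-04). Aspm (-3.74 ± 0.62), Cenpf (-4.09 ± 0.63), Kif20a (-3.59 ± 0.61) and Espl1 (-3.56 ± 0.64) were in the same range, and inhibitor library 3 was the highest treated library for all of these. Of 57 replication-dependent histone genes tested 53 were lower and 0 higher (median -2.82, and -3.49 without inhibitor library 3). Without inhibitor library 1, 51 were lower and the median was -2.39. Hist1h2bk had 152, 174 and 195 CPM and 5.37, 7.93 and 20.1 CPM (log2 fold change -3.95 ± 0.69, adjusted p = 0.00117). Its change was -4.70 without inhibitor library 3 and -3.63 without inhibitor library 1. Hist1h3b had 279, 189 and 175 CPM and 8.43, 12.2 and 31.3 CPM (-3.62 ± 0.71, -4.38 without inhibitor library 3 and -3.30 without inhibitor library 1). All histone genes together took 0.931% ± 0.143 of counts in stimulated and 0.156% ± 0.0735 in inhibitor libraries (SD, n = 3). Histone genes are near-identical copies whose RNA lacks a poly(A) tail, so single members are uncertain.

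Of 32 DNA replication genes 29 were lower and 0 higher, with a median of -1.16. Mcm5, a subunit of the replicative helicase, had 294, 313 and 328 CPM and 128, 142 and 176 CPM (log2 fold change -1.07 ± 0.26, adjusted p = 0.00822). Mcm10 had 118, 113 and 112 CPM and 21.7, 22.1 and 33.4 CPM (log2 fold change -2.15 ± 0.58, adjusted p = 0.0128). Cdc6, Orc1 and Cdc45, which load and start the helicase, were lower (-1.72, -1.68 and -1.71). Orc1 lost its call without each of the 6 libraries, Cdc6 without each except inhibitor library 3, and Cdc45 without inhibitor library 2. The spread behind these calls was estimated over all 9 libraries, the unstimulated ones included. Those differed widely in genes of dividing cells, with 397, 1311 and 257 CPM summed over the mitosis list in unstimulated libraries 1 to 3. Of 14 regulators of the G1 phase 2 were higher and 9 lower. Cdkn1a, encoding the inhibitor p21, fell from 223, 223 and 232 to 30.7, 31.97 and 41.4 CPM (log2 fold change -2.70 ± 0.15, adjusted p = 1.3e-06), and Cdkn2d, encoding p19-INK4d, from 52.6, 52.8 and 63.1 to 10.9, 12.96 and 13.1 CPM (-2.19 ± 0.14). Cdk6 (-1.06) and Ccnd3 (-0.96) were lower and Ccnd2 higher, and Cdkn1b, encoding p27, had 114, 76.4 and 72.5 CPM and 123, 112 and 107 CPM, which overlapped (adjusted p = 0.105). Of 11 E2F and retinoblastoma genes 5 were lower and 0 higher, and 3 lower without inhibitor library 1, led by E2f8 (52.1, 52.1 and 57.2 against 9.73, 9.52 and 14.2 CPM, -2.27 ± 0.59) and E2f2 (86.98, 92.1 and 93.1 against 21.8, 22.6 and 30.7 CPM, -1.86 ± 0.34). Mitotic genes kept some RNA with the inhibitor: summed over the 30 genes it was 463 to 882 CPM, against 5112 to 5173 CPM in stimulated and 257 to 1311 CPM in unstimulated libraries.

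**Figure D5:**
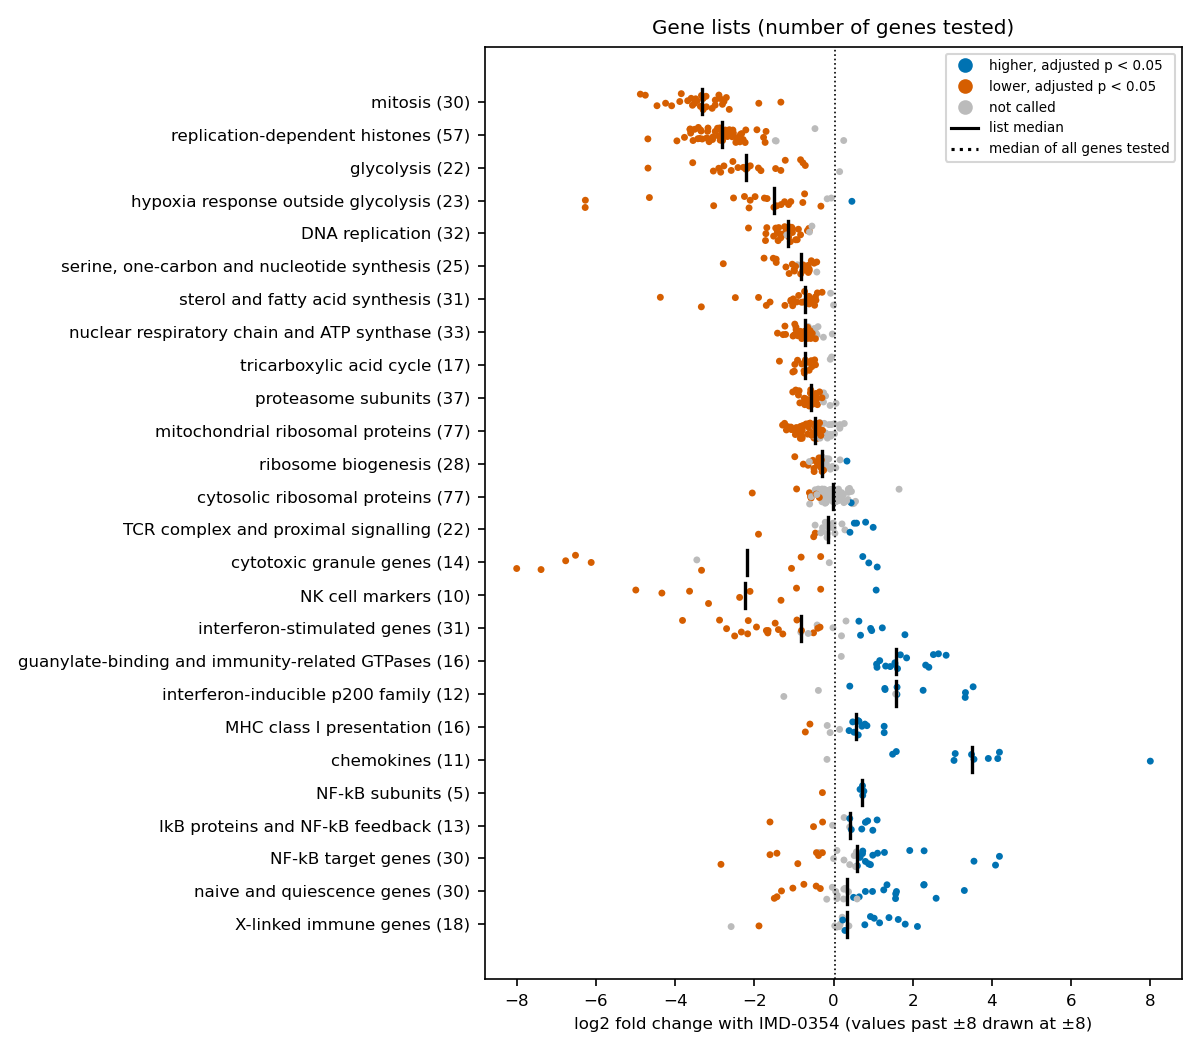
Each point is the log2 fold change (inhibitor over stimulated) of 1 gene of a list, coloured by its call, with the list median as a black bar and the median of all genes as a dotted line; values beyond 8 in either direction are drawn at 8. Mitosis (median -3.31) and glycolysis (-2.20) lie left of 0 but for 1 glycolysis gene, chemokines (3.49) and guanylate-binding proteins (1.58) mostly right of it, and cytosolic ribosomal proteins sit around 0.

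Glycolysis, the breakdown of glucose to pyruvate and lactate that T cells raise on activation, was lower at almost every step: 21 of 22 genes were lower and 0 higher (median -2.20). Glucose enters through Slc2a1, encoding GLUT1, which had 236, 224 and 211 CPM without and 45.4, 51.9 and 50.9 CPM with the inhibitor (log2 fold change -2.18 ± 0.10, adjusted p = 4.5e-07), and through Slc2a3, encoding GLUT3 (427, 358 and 287 against 39.8, 43.3 and 47.7 CPM, -3.03 ± 0.14). The enzyme genes Tpi1 (1177, 943 and 943 against 82.7, 79.4 and 98.5 CPM, log2 fold change -3.56 ± 0.19, adjusted p = 1.1e-06) and Eno1 (1257, 1255 and 1291 against 149.8, 165 and 195 CPM, log2 fold change -2.90 ± 0.12, adjusted p = 3.3e-07) act further down the pathway. Ldha, which makes lactate, had 1943, 1983 and 2024 CPM and 233, 283 and 358 CPM (log2 fold change -2.77 ± 0.14, adjusted p = 9.1e-07). Slc16a3 (ENSMUSG00000025161, chromosome 11, 120948480 to 120960868), the lactate exporter MCT4, had 236, 247 and 232 CPM and 9.27, 9.23 and 9.27 CPM (log2 fold change -4.68 ± 0.17, adjusted p = 2.3e-07), below the unstimulated 35.5 ± 8.52 CPM. In all of these every inhibitor library lay below every stimulated library, as it did in 29.4% of all genes tested. Several of these enzymes have many processed pseudogenes, with which reads may be shared. Hk2 (-1.83), Pkm (-2.85) and Gapdh (-2.41) were lower too, and Pfkfb4 was not called (0.15). Together the 22 genes took 1.48% ± 0.0474 of counts in stimulated, 0.335% ± 0.0128 in inhibitor and 0.222% ± 0.0124 in unstimulated libraries.

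The hypoxia response outside glycolysis was lower too, with 20 lower and 1 higher of 23 (median -1.51). This program is driven by the HIF factors, which in T cells are also raised by receptor signalling. Hif1a itself had 1014, 865 and 1018 CPM in stimulated and 320.3, 280.4 and 306 CPM in inhibitor libraries (log2 fold change -1.68 ± 0.10, adjusted p = 1.8e-06). Egln3 (ENSMUSG00000035105, chromosome 12, 54178981 to 54203860), a prolyl hydroxylase that is both a target and a brake of HIF, had 297, 267 and 270.1 CPM and 3.52, 3.33 and 3.96 CPM (log2 fold change -6.27 ± 0.13, adjusted p = 6.3e-09), near the unstimulated 3.24 ± 0.431 CPM. Bnip3, a mitophagy receptor, had 157, 112 and 102 CPM and 2.28, 1.31 and 1.27 CPM (log2 fold change -6.27 ± 0.27, adjusted p = 3.8e-07). Ak4, a mitochondrial adenylate kinase, had 54.1, 55.5 and 47.5 CPM and 2.01, 1.52 and 2.71 CPM (log2 fold change -4.65 ± 0.21, adjusted p = 4.6e-07). Ddit4, a brake on mTORC1, fell from 395, 370.4 and 426 to 39.6, 51.98 and 54.6 CPM (log2 fold change -3.03 ± 0.19, adjusted p = 2.3e-06). Vegfa (-1.14), Ero1l (-2.52) and Mif (-1.98) were lower, Arnt, the partner of HIF-1-alpha, was not called (-0.16), and Hif1an, an asparagine hydroxylase that limits HIF, was the member that rose (0.46).

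Promoters of 3 of these genes are shown for the core of the hypoxia response element, ACGTG, searched on both strands of the same 300-base RefSeq windows. They were picked because they hold a match. The window of Tpi1 and the second listed promoter of Ldha held none. This core also lies within the E-box CACGTG, which 7.15% of all promoters held. Of all promoters 19.6% held the core, against 17 of 34 (50%) for glycolysis genes and 16 of 28 (57.1%) for the hypoxia list, with entries for 21 of 22 and 19 of 23 genes. The share was 33.3% (9 of 27 promoters) for the mitosis genes and 42.1% (8 of 19) for those of the tricarboxylic acid cycle, and 63.6% (7 of 11) for the MYC network. Matches are in capitals, on either strand, for Egln3 (chr12:54203825-54204124, minus strand), Bnip3 (chr7:138909457-138909756, minus strand) and Slc16a3 (chr11:120948817-120949116, plus strand).
Egln3: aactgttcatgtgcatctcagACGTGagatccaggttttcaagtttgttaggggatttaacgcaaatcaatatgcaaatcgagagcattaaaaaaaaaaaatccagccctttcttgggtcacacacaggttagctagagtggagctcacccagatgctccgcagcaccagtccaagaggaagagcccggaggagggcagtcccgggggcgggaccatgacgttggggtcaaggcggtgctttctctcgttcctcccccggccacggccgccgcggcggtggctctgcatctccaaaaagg
Bnip3: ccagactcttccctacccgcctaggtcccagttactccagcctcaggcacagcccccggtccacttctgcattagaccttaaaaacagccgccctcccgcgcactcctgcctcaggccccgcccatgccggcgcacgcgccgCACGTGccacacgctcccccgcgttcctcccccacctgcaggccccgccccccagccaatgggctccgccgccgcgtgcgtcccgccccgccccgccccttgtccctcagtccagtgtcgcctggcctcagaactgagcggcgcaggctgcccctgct
Slc16a3: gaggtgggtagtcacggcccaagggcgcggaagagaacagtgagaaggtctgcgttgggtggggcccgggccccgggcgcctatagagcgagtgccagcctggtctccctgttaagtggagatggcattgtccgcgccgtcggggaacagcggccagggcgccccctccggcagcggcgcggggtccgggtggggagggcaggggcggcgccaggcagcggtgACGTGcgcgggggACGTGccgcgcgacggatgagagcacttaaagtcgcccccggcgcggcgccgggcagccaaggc
Egln3 holds 1 match, and Bnip3 and Slc16a3 hold 2 each; in Bnip3 they overlap on opposite strands as the E-box CACGTG. These letters are a description and say nothing of HIF binding in these cells.

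Mitochondrial genes went in opposite directions by genome. Nuclear genes of the respiratory chain and ATP synthase had 25 lower and 0 higher of 33 (median -0.72), and tricarboxylic acid cycle genes 15 lower and 0 higher of 17 (median -0.71). Atp5b, the beta subunit of ATP synthase, had 1429, 1469.6 and 1547 CPM without and 505, 633 and 701 CPM with the inhibitor (log2 fold change -1.27 ± 0.12, adjusted p = 3.0e-05). Suclg1, of succinyl-CoA ligase, had 122, 134 and 144 CPM and 44.5, 53.3 and 57.3 CPM (-1.37 ± 0.10). Mdh2, the mitochondrial malate dehydrogenase, had 247, 282 and 292 CPM and 122, 140.3 and 155 CPM (-0.98 ± 0.11). Mitochondrial ribosomal proteins, which are also nuclear genes, had 54 lower and 0 higher of 77 (median -0.47). Without inhibitor library 1, 37 of them were lower and 0 higher (median -0.37). By contrast 6 of 12 mRNAs encoded by the mitochondrial genome were higher and 0 lower. mt-Nd1, a complex I subunit, had 932, 1412 and 938 CPM and 1997, 2477 and 2699.9 CPM (log2 fold change 1.13 ± 0.26, adjusted p = 0.00528), and mt-Nd5 1116, 1554 and 933 CPM and 2079.8, 2559 and 2800.4 CPM (log2 fold change 1.05 ± 0.27, adjusted p = 0.0103). The libraries did not overlap, but stimulated library 2 was the highest of its group for both. Mitochondrially encoded mRNAs took 1.40% ± 0.122 of counts in stimulated and 2.58% ± 0.262 in inhibitor libraries. Cell viability was not recorded in the labels, and a share of mitochondrial RNA is also used as a sign of RNA and cell quality, whose part in these values was not tested.

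Lipid synthesis was lower along both branches, with 29 of 31 genes lower and 0 higher (median -0.73). Desaturases and an elongase were among the largest falls. Scd1 (ENSMUSG00000037071, chromosome 19, 44394455 to 44407879), a stearoyl-CoA desaturase outside the list, had 253, 271 and 256 CPM and 7.65, 5.79 and 6.52 CPM (log2 fold change -5.29 ± 0.48, adjusted p = 2.2e-05), below the unstimulated 44.3 ± 30.4 CPM. Scd2, its close relative and the more abundant, had 1491, 1394 and 1325 CPM and 143, 133 and 141 CPM (log2 fold change -3.34 ± 0.16, adjusted p = 6.8e-07). Fads2, a delta-6 desaturase, had 65.3, 58.3 and 61.4 CPM and 2.33, 2.66 and 3.897 CPM (log2 fold change -4.37 ± 0.46, adjusted p = 5.5e-05). Elovl6 had 99.1, 97.1 and 96.5 CPM and 15.4, 17.4 and 19.7 CPM (-2.48 ± 0.16). In the sterol branch Lss, lanosterol synthase, had 149 ± 12.3 and 48.9 ± 1.897 CPM (-1.60). The regulators Srebf1 (-0.65) and Srebf2 (-0.29) were lower. Fasn, fatty acid synthase, was not called (-0.07, adjusted p = 0.621).

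Synthesis of serine, one-carbon units and nucleotides was lower in 23 of 25 genes, with 0 higher (median -0.83). Rrm2, of ribonucleotide reductase, had 258, 249.7 and 279 CPM and 29.5, 28.6 and 56.2 CPM (log2 fold change -2.78 ± 0.62, adjusted p = 0.00482). Its partner Rrm1 had 395, 388 and 398 CPM and 101, 99.5 and 149.7 CPM (-1.75 ± 0.34). In the serine branch Psph had 104, 96.2 and 108 CPM and 32.6, 35.1 and 39.5 CPM (log2 fold change -1.52 ± 0.10, adjusted p = 2.8e-06) and Shmt1 73.7, 83.99 and 93.2 CPM and 27.5, 28.9 and 35.5 CPM (log2 fold change -1.45 ± 0.13, adjusted p = 2.1e-05), all without overlap. Phgdh (-1.12) and Psat1 (-1.20) were lower, and Mthfd2, of the mitochondrial folate pathway, was lower by 0.42. Amino acid transporters were not uniform (3 higher and 2 lower of 10, and 3 and 1 without inhibitor library 1). Slc7a5, the large neutral amino acid transporter, fell from 674, 747 and 769.5 to 325, 367 and 372 CPM (log2 fold change -1.04 ± 0.16, adjusted p = 6.7e-04), while Slc38a2 rose from 228, 219.98 and 232 to 373, 398 and 407 CPM (log2 fold change 0.79 ± 0.10, adjusted p = 1.4e-04). Tfrc, the transferrin receptor through which dividing cells take up iron, fell from 996, 938 and 955 to 210.1, 208 and 254 CPM (log2 fold change -2.10 ± 0.35, adjusted p = 8.6e-04).

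The amino acid stress program of ATF4 was lower in 16 of 23 genes and higher in 2 (median -0.46). Without inhibitor library 1, 12 were lower and 2 higher. Atf4 had 548, 541 and 569.9 CPM and 393, 407 and 405 CPM (log2 fold change -0.46 ± 0.10, adjusted p = 0.00308). Vldlr (46.99, 35.7 and 32.2 against 3.31, 2.395 and 3.12 CPM, -3.70 ± 0.42), Stc2 (60.2, 58.4 and 50.9 against 13.2, 13.7 and 12.3 CPM, -2.11 ± 0.22) and Cth, of cysteine synthesis (77.4, 68.7 and 71.3 against 21.6, 23.8 and 27.6 CPM, -1.58 ± 0.18), were among its targets that fell. Atf5 was among the 2 members called higher, at 30.1, 30.4 and 31.1 CPM and 102, 116 and 107 CPM (log2 fold change 1.83 ± 0.10, adjusted p = 1.2e-06). Ddit3, encoding CHOP, and Chac1 were not called (0.28 and 0.07). The unfolded protein response was split, with 8 higher and 10 lower of 21 (median -0.23). Without inhibitor library 1, 8 were higher and 7 lower (median -0.08). Dnajb9 (13.04, 8.82 and 8.53 against 29.3, 26.4 and 25 CPM, 1.41 ± 0.18) and the chaperone Pdia3 (0.85 ± 0.07) were higher and the sensor gene Ern1 (43.2, 47.9 and 60.8 against 26.5, 25.1 and 25.8 CPM, -0.97 ± 0.15) lower.

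Protein turnover and folding genes had list medians above -1 on the log2 scale. Of 37 proteasome subunits 32 were lower and 0 higher (median -0.58), with Psmb7 at 162, 159 and 151 CPM and 63.1, 81.4 and 86.6 CPM (log2 fold change -1.03 ± 0.12, adjusted p = 1.0e-04). Among chaperones 11 were lower and 1 higher of 21; Cct8, of the chaperonin that folds actin and tubulin, had 402, 435 and 433 CPM and 229, 249.8 and 272 CPM (log2 fold change -0.76 ± 0.08, adjusted p = 6.4e-05). Ribosome biogenesis had 15 lower and 1 higher of 28 (median -0.30), for example Nhp2 (90.5, 81.6 and 78.2 against 34.8, 43.8 and 48.4 CPM, -0.98 ± 0.15). Without inhibitor library 1, 12 of this list were lower and 1 higher. The 77 cytosolic ribosomal protein genes lay near the median of all genes, with 9 lower and 1 higher and a median of -0.02, which was 0.08 under upper-quartile scaling and 0.12 without inhibitor library 1. Without that library the calls turned to 6 higher and 4 lower. Rps27l, a stress-inducible paralog, was the largest change among them (115, 81.96 and 85.3 against 15.97, 23 and 29.04 CPM, log2 fold change -2.05 ± 0.32, adjusted p = 6.1e-04). In the MYC network 5 were higher and 4 lower of 10. Myc fell slightly, as given above, and its relative Mycn fell by 5.52 on the log2 scale, while their partner Max rose (76.6, 67.3 and 60.4 against 158, 129.6 and 121 CPM, log2 fold change 1.00 ± 0.12, adjusted p = 1.4e-04). The antagonists went both ways. Mxd4 (24.8, 17.5 and 17.02 against 46.7, 54.3 and 48.5 CPM, 1.33 ± 0.17), Mxd1 (0.58) and Mnt (0.57) rose. Mxi1 (72.3, 61.5 and 57.2 against 24.3, 27.2 and 29.6 CPM, -1.24 ± 0.14) and Mxd3 (-2.49) fell.

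Genes known as interferon-inducible separated by family. The guanylate-binding proteins and immunity-related GTPases, which act against intracellular pathogens and respond strongly to interferon gamma, had 15 higher and 0 lower of 16 (median 1.58). Gbp2 had 112, 84.96 and 73.5 CPM without and 344, 329 and 298 CPM with the inhibitor (log2 fold change 1.85 ± 0.15, adjusted p = 1.1e-05). Gbp4 had 40.9, 44.1 and 37.1 CPM and 258, 248 and 196 CPM (log2 fold change 2.52 ± 0.12, adjusted p = 6.6e-07). Irgm2 had 35.2, 31.6 and 30.3 CPM and 100.3, 113 and 99.3 CPM (log2 fold change 1.69 ± 0.12, adjusted p = 4.9e-06). The p200 family had 9 higher and 0 lower of 12, and 7 and 0 without inhibitor library 1. Its median of 1.59 was 1.31 without that library and 3.39 among genes of at least 10 CPM. Mndal had 4.04, 2.57 and 1.71 CPM and 38.4, 31.4 and 25.8 CPM (log2 fold change 3.53 ± 0.27, adjusted p = 7.7e-06). Ifi203 had 1.91 ± 0.169 and 19.2 ± 3.49 CPM (3.33). Both were far below their unstimulated levels (133 ± 6.77 and 201 ± 21.5 CPM). Classical antiviral genes instead had 19 lower and 6 higher of 31 (median -0.83, -1.38 without inhibitor library 1 and -0.44 among genes of at least 10 CPM). Oas3, a sensor of double-stranded RNA, had 58.7, 69.4 and 62.3 CPM and 7.103, 8.67 and 10.1 CPM (log2 fold change -2.88 ± 0.19, adjusted p = 3.5e-06). Usp18, a brake on interferon receptors, had 20.9, 18.3 and 20.4 CPM and 3.74, 2.07 and 3.38 CPM (-2.70 ± 0.22). Eif2ak2, encoding the kinase PKR, had 39.1, 42.3 and 35.3 CPM and 9.06, 9.67 and 11.5 CPM (-1.94 ± 0.22). Mx2 (-3.81), Isg15 (-2.15) and Irf7 (-1.66) were lower and Ifit1 (0.94) and Parp14 (0.96) higher. Members of the GBP, IRG and p200 families are close paralogs, and reads may be shared between them.

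Presentation on MHC class I was higher, in 11 of 16 genes against 2 lower (median 0.57). B2m, the light chain, had 889.7, 797 and 839 CPM and 1618, 1354 and 1404 CPM (log2 fold change 0.79 ± 0.11, adjusted p = 2.4e-04). Nlrc5, the transactivator of class I genes, had 146, 180.5 and 149 CPM and 388, 405 and 360.05 CPM (log2 fold change 1.28 ± 0.10, adjusted p = 7.1e-06). Tapbp, which loads peptides, had 97.4, 117 and 107 CPM and 237, 278 and 264 CPM (log2 fold change 1.28 ± 0.10, adjusted p = 9.7e-06). The immunoproteasome genes Psmb8 (-0.71) and Psmb10 (-0.60) were the members that fell. The GIMAP GTPases of lymphocytes had 3 lower and 0 higher of 8 (3 and 1 without inhibitor library 1), led by Gimap7 (96.3, 68.3 and 86.5 against 16.9, 12.9 and 16.3 CPM, log2 fold change -2.44 ± 0.16, adjusted p = 3.1e-06), and the Schlafen family 3 higher and 0 lower of 7, among them Slfn2 (6.46, 5.79 and 5.23 against 16.5, 17.4 and 18.1 CPM, 1.57 ± 0.13). Lysosome and autophagy genes had 11 higher and 3 lower of 18 (median 0.47). Sqstm1, encoding the autophagy receptor p62, had 104, 103 and 109 CPM and 203, 241 and 242 CPM (log2 fold change 1.12 ± 0.09, adjusted p = 1.1e-05).

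Regulators of cell death changed in both directions. Bcl2, which protects lymphocytes from apoptosis, had 636, 579.9 and 580.3 CPM and 279, 292 and 286 CPM (log2 fold change -1.07 ± 0.09, adjusted p = 1.9e-05). Bcl2l11, encoding its antagonist BIM, had 27.3, 26.1 and 26.2 CPM and 96.7, 104 and 93.1 CPM (log2 fold change 1.89 ± 0.09, adjusted p = 5.2e-07). Bbc3, encoding PUMA, had 13.8, 13.7 and 12.7 CPM and 20.3, 25.6 and 22.6 CPM (log2 fold change 0.77 ± 0.16, adjusted p = 0.00335). Bmf was higher (1.93 ± 0.984 against 7.53 ± 0.589 CPM, 1.97), as was the protective Mcl1 (0.40), and Bax (-0.61) and Bid (34.5, 34.9 and 32.2 against 18.9, 21.2 and 26.5 CPM, -0.61 ± 0.14) were lower. The BCL2 family as a list had 5 higher and 6 lower of 16, and p53 response genes 6 higher and 6 lower of 18. Trp53 had 103, 128 and 123 CPM and 145, 164 and 163 CPM (log2 fold change 0.42 ± 0.10, adjusted p = 0.00637). Antioxidant genes had 12 lower and 1 higher of 21, and 10 and 0 without inhibitor library 1; Gpx4, which removes lipid peroxides, had 163, 99.2 and 103 CPM and 40.1, 46.4 and 54.1 CPM (log2 fold change -1.38 ± 0.20, adjusted p = 3.5e-04). Txn1, thioredoxin, had 210.00, 259 and 241 CPM and 72.9, 106 and 138 CPM (-1.16 ± 0.23), and Hmox1 overlapped between the groups (14.98, 13.7 and 16.9 against 10.4, 10.9 and 16.7 CPM, adjusted p = 0.408).

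Xist RNA, which coats the inactive X chromosome and starts its silencing, was slightly higher with the inhibitor in every library. Xist had 2422, 2138 and 2057 CPM in stimulated and 3231, 2656 and 2597 CPM in inhibitor libraries (log2 fold change 0.36 ± 0.13, adjusted p = 0.0499); the groups did not overlap, and the call was lost in 7 of the alternative settings, also without inhibitor library 1, with values from 0.25 to 0.40 in those. Reads of Xist and its antisense partner Tsix cannot be told apart without a stated strand setting. Factors of the silent X went both ways. Lbr, the lamin B receptor that binds Xist, had 320.2, 301 and 329.7 CPM and 144, 149.97 and 166 CPM (log2 fold change -1.05 ± 0.08, adjusted p = 8.5e-06). Smchd1, a chromosomal protein of the silent X, had 376, 378 and 374 CPM and 259, 245 and 258 CPM (log2 fold change -0.56 ± 0.06, adjusted p = 8.3e-05). Hdac3 had 70.5, 65.6 and 67.97 CPM and 45.01, 45.3 and 44.9 CPM (log2 fold change -0.59 ± 0.09, adjusted p = 4.0e-04). Spen, the repressor recruited by Xist, was higher, with 170.03, 194 and 178 CPM and 289.5, 280.2 and 273 CPM (log2 fold change 0.64 ± 0.10, adjusted p = 5.9e-04). Of the 23 genes in this list 4 were higher and 6 lower (median -0.07), against 21.7% and 22.8% of all genes, so the list did not stand out. Without inhibitor library 1, 1 was higher and 6 lower. Hnrnpu (364 ± 50.9 and 332 ± 69.8 CPM), Yy1 (102 ± 10.04 and 108 ± 11.8 CPM) and Ciz1 (70.5 ± 6.16 and 74.99 ± 10.97 CPM), which help to keep Xist in place, were not called. Polycomb genes had 9 higher and 8 lower of 21: Ezh2, a methyltransferase of dividing cells, was lower (282, 311 and 276 against 154, 154 and 199 CPM, log2 fold change -0.78 ± 0.26, adjusted p = 0.0336), a call lost without each library except inhibitor library 3, and its relative Ezh1 was higher (32.8, 34.4 and 32 against 74.2, 76.2 and 61.8 CPM, log2 fold change 1.10 ± 0.11, adjusted p = 4.0e-05). The maintenance methyltransferase Dnmt1 fell from 552, 642 and 610.1 to 239.6, 261 and 324 CPM (log2 fold change -1.13 ± 0.12, adjusted p = 7.5e-05), while the de novo enzyme Dnmt3a rose from 176, 197 and 164 to 303, 331 and 327 CPM (log2 fold change 0.84 ± 0.09, adjusted p = 7.9e-05).

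The X chromosome as a whole did not stand out. Of 587 X-linked genes tested 121 were higher (20.6%) and 119 lower (20.3%), with a median log2 fold change of 0.01, and X-linked genes took 2.72% ± 0.138 of counts in stimulated and 2.64% ± 0.190 in inhibitor libraries. On the autosomes 21.7% were higher and 22.97% lower (median 0.03). Among 10 genes known to escape X inactivation 3 were higher and 1 lower. Ddx3x had 463, 448 and 429 CPM and 514, 537 and 568 CPM (log2 fold change 0.27 ± 0.08, adjusted p = 0.0141), a call lost in 5 of the alternative settings. Eif2s3x fell from 129, 132 and 144 to 93.2, 97.2 and 108 CPM (log2 fold change -0.44 ± 0.08, adjusted p = 0.00188). Kdm6a had 132, 131 and 130.3 CPM and 148, 141 and 139 CPM, without overlap but with an adjusted p of 0.163. X-linked immune genes had 10 higher and 1 lower of 18 (median 0.34). Besides Il2rg they included Cd40lg, the ligand through which T cells help B cells (9.34, 9.04 and 9.29 against 17.6, 16.1 and 19.1 CPM, log2 fold change 0.93 ± 0.21, adjusted p = 0.0054), the chemokine receptor Cxcr3 (3.27, 3.93 and 3.697 against 6.45, 7.51 and 8.24 CPM, log2 fold change 1.03 ± 0.14, adjusted p = 3.0e-04) and Itm2a (33.1, 32.5 and 28.2 against 53.7, 75.4 and 80.6 CPM, log2 fold change 1.16 ± 0.21, adjusted p = 0.00161). Tlr7 (1.95 ± 0.647 against 5.14 ± 1.404 CPM) and Cybb (3.02 ± 0.558 against 13.1 ± 6.12 CPM), which B and myeloid cells also express, were higher too. These values are total expression of both alleles, and allele-resolved values were not analysed here.

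Markers of other splenic cells were lower in both cultures than in unstimulated cells, and were not equal between the cultures. B cell markers summed to 82.9 to 90.6 CPM in stimulated and 163 to 168 CPM in inhibitor libraries, with 7 higher and 0 lower of 15; in unstimulated libraries the sum was 1059.8 to 3093 CPM. Most of the sum was Ighm (50.6, 59.3 and 57.1 against 123, 119 and 119.98 CPM, log2 fold change 1.12 ± 0.22, adjusted p = 0.0026). Myeloid and dendritic cell markers had 9 higher and 1 lower of 21, and summed to 147 to 155 CPM and 228 to 315 CPM, with inhibitor library 3 highest. Cd74, the invariant chain of MHC class II, had 34.2, 42.1 and 37.99 CPM and 87.3, 96.4 and 121 CPM (log2 fold change 1.41 ± 0.20, adjusted p = 3.2e-04), Lyz2 1.197 ± 0.287 and 7.64 ± 4.98 CPM, and Clec9a and Siglech no count in the stimulated libraries. Neutrophil markers summed to at most 1.48 CPM in any of the 6 libraries, with Ngp at 0 in all of them. These levels moved with the chemokine, MHC and X-linked immune genes above, and their part in those results was not tested.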

How the data were processed

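RNA of 9 libraries was sequenced by the submitters, who deposited 1 table of read counts per gene. The deposited values are whole-number counts of reads, made by the authors with STAR 2.7.1a and featureCounts on mm10, per the submitters' processing notes. How mates, strands and multi-mapping reads were counted, and how castaneus reads fared against a C57BL/6 reference, is not given in the sources used here. Of the gene counts from 1 to 10, 70.6% to 78.5% per library were even numbers. Whether both mates of a pair were counted was not tested. Of 49671 genes 49412 matched GENCODE M21 and 15400 had no count.

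Genes were filtered by filterByExpr, scaled by the trimmed mean of M-values and tested by edgeR 4.0.16 (quasi-likelihood, R 4.3.3) in a fit of group means over all 9 libraries with 6 residual degrees of freedom, at a Benjamini-Hochberg adjusted p under 0.05. The standard error of a log2 fold change is its size over the root of F, an approximation. CPM and log2 values were computed from the deposited counts. The test was checked on simulated data. Genes were named as the 15 largest called changes per direction at a mean log2 CPM of at least 5 without overlap of libraries, up to 4 called members of each of 64 lists at a mean log2 CPM of at least 3, and 68 anchors; others were chosen after their values were seen. The members and lists were chosen with earlier results of these data known. The alternatives were DESeq2 1.42.0, limma 3.58.1 (voom), RLE and upper-quartile scaling, no filter, a minimum of 10 CPM, the 6 stimulated libraries alone, a replicate block and leaving out each library. A fit that left out inhibitor library 1 and kept the tested genes was added after seeing the data.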

Additional observations from a re-analysis of the deposited data

How the results depend on the processing

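The counts of 3990 higher and 4192 lower genes, and of 1711 and 1989 at 2-fold, stayed within 1.5 times in 57 of 60 alternative counts. The exceptions came with a minimum of 10 CPM, which left 8723 genes to test: 2780 lower, 523 at least 2-fold higher and 845 at least 2-fold lower, beside 2731 higher. Without each replicate in turn the counts ranged from 3116 to 3509 higher, 3424 to 3859 lower, 1438 to 1664 at least 2-fold higher and 1748 to 2043 at least 2-fold lower. Upper-quartile scaling moved the median of all genes to 0.16 and gave 4828 higher and 3405 lower. The replicate block gave 3642 higher and 3940 lower. A fit of the 6 stimulated libraries alone gave 4172 higher and 4511 lower of 16630 tested. Same-numbered stimulated and inhibitor libraries correlated at 0.144, 0.107 and 0.0782 in their deviations, not all above 0.1, so the numbers were not taken to pair the samples; each stimulated library correlated best with its own number among the inhibitor libraries, a hint from the data and not from the design. Of the named genes' values 3919 kept their side of the threshold and direction, 140 lost a call, 14 gained one, and 2 changed sign: Irf4 (0.033 with upper-quartile scaling) and Lef1 (-0.026 without stimulated replicate 3). Among list medians 818 moved by less than the spread and the others by more, of which 11 changed sign. These were chemokine receptors (-0.22 with a minimum of 10 CPM), cytokine receptors (0.049 with upper-quartile scaling, 0.026 with a minimum of 10 CPM), costimulatory and coinhibitory receptors (-0.10 with a minimum of 10 CPM, -0.054 without inhibitor replicate 3 and up to 0.30 without another replicate) and Xist and X inactivation factors (0.063 with upper-quartile scaling). Among the 11 were also erythroid and platelet markers, at -0.35 with the 6 libraries and -0.83 or, with the main gene set, -0.82 without inhibitor replicate 1, against 0.86 without inhibitor replicate 2, and stromal and endothelial markers -0.49 or -0.48 without inhibitor replicate 1 and 0.73 without inhibitor replicate 2. The median of neutrophil markers, 0 with all libraries, was 0.16 with voom, -1.40 with the 6 libraries, -0.082 with the replicate block, 0.78 without stimulated replicate 2 and -1.12 without inhibitor replicate 1, in both gene sets. The cause was not tested. Neutrophil markers summed to at most 1.48 CPM in these libraries, where depth limits what can be seen.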
